A study of Mus musculus with 52 samples.

Results

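The clustered protocadherins are cell-adhesion genes that stand side by side on mouse chromosome 18 in an alpha, a beta and a gamma cluster. The members described here were all genes of chromosome 18 whose symbol is that of an alpha, beta or gamma protocadherin, together with the long intergenic RNA gene 3222401L13Rik, which lies at the start of the gamma cluster. They comprised 59 gene IDs of the 39144 listed in the data, with 14 in the alpha cluster, 22 in the beta cluster and 23 in the gamma cluster, 3222401L13Rik included. In the alpha cluster, 2 gene IDs carry the same symbol, Pcdha11.

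Each alpha and gamma protocadherin is made from its own large variable exon, with its own promoter, spliced to short constant exons shared by its whole cluster, whereas beta genes consist essentially of a single exon. Promoter choice is partly random from cell to cell for most isoforms, while the C-type isoforms (Pcdhac1, Pcdhac2, Pcdhgc3, Pcdhgc4 and Pcdhgc5) at the 3′ ends of the alpha and gamma clusters are regulated more uniformly. The proteins bind like proteins on neighbouring cells, and in the nervous system they are known for giving neurons an identity that lets branches of the same cell avoid one another. CTCF, cohesin, DNA methylation and the chromatin protein SMCHD1 are known regulators of the clusters.

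The study compared RNA from male mice that lack the long non-coding RNA Tug1 with RNA from wild-type males, to ask which genes depend on the Tug1 locus. In Tug1-/- mice (strain Tug1_tm1.1Vlcg) a lacZ reporter stands in place of the Tug1 gene body, behind the retained promoter and first exon. Prostate was represented by 3 wild-type and 2 Tug1-/- libraries, and liver, heart, spleen, eyes and embryonic fibroblasts (MEFs, passage 2 cultures) by 3 of each genotype. Both genotypes of these tissues are labelled as mixed C57BL/6J/129S6, with N3-C57BL/6J and no Neo named. The 4 wild-type testes libraries are labelled C57BL/6J/129S6 with C57BL/6J and no Neo, whereas Neo and LacZ are named for the 4 Tug1-/- and 3 rescue testes libraries. The rescue mice (Tug1rescue) are Tug1-/- and also carry tg(Tug1), a doxycycline-inducible Tug1 transgene, and CAGs-rtTA3, a ubiquitously driven activator, and were given doxycycline. The transgene encodes an isoform that lacks the 5′ region of Tug1. Brain data came from an earlier dataset of wild-type and Tug1-/- mice that the study processed again, given here as group means of both genotypes, and the number, background and library kit of its samples are not given in the labels. Mouse ages are not given in the labels either, nor whether different tissues came from the same mice.

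The values available were the mean abundance of each gene per group in TPM, a transcript abundance scaled for gene length and sequencing depth, and not the values of single libraries. No spread between replicates could therefore be computed, no test was made, and every difference below is a difference between 2 means. Ratios are Tug1-/- mean over wild-type mean. Where the mean normalised count of a gene and the number of libraries were at hand (all tissues but brain and testes), an approximate 95% exact binomial (Clopper-Pearson) interval is given as the counting interval of the ratio. It covers counting error only and not the spread between mice. A gene was kept where the mean over both groups was at least 0.5 TPM, and it was counted as past 1.5-fold from the log2 ratio with 0.1 TPM added to both means, which understates the change of low genes.

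Mean normalised counts per library summed to between 38666994 and 48341823 in 6 tissues and to 17573743 in brain, and the depth of testes is unknown. Tug1 itself stood at 10.1 to 57.5 TPM in the wild-type means and at 0.0825% to 2.21% of that in the Tug1-/- means. In the rescue testes Tug1 was at 1.6 TPM, against 0.885 TPM in Tug1-/- testes. The defining markers of each labelled tissue were present in it, with Prm1 at 14339 TPM in wild-type testes, the lens crystallin Cryaa at 12449 in eyes, Myh6 at 4692 in heart, Alb at 97035 in liver, Cd79a at 1295 in spleen, Pbsn at 65995 in prostate, Snap25 at 1532 in brain and Col1a1 at 6584 in MEFs. The liver markers Alb, Apoa1 and Ttr summed to 21.3 TPM in the spleen of wild types and to 0.245 TPM in that of Tug1-/- mice, whereas Spink1 was listed at 0 in wild-type and at 68.8 TPM in Tug1-/- spleen, so the spleen groups differed in transcripts of other organs, and their part in the spleen values below was not tested. With means alone, no library could be left out. In heart, the B cell markers Cd79a (12.5 and 5.91 TPM) and Ms4a1 (3.56 and 1.41 TPM) were past 1.5-fold lower in the Tug1-/- mean, and their part in the heart values was likewise not tested.

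The alpha cluster lay at chr18:36930184-37187661, the beta cluster at chr18:37264938-37524479 and the gamma cluster at chr18:37655451-37841873 (GRCm38), and all 59 members were on the plus strand. The 14 alpha genes end within a few bases of each other, as do the 22 gamma protocadherins. In the GENCODE vM21 annotation, in which all 59 members had the same coordinates as in the data, 31.8% to 66.8% of the exonic bases of a gamma A-type gene also belonged to exons of other members, and 38.0% to 54.9% of those of the alpha genes other than the C-types. For beta genes the median share was 0.0%. A read in a shared exon cannot be given to 1 member, and how such reads were treated is not given in the sources used here. The library kit of the tissues other than brain did not mark strand, so there reads from a member and from an antisense gene over the same exon cannot be told apart. Such an overlap was annotated for 4 alpha genes, for 1 beta gene (Pcdhb12, 1927 bases) and for 6 A-type, 1 B-type and 1 C-type gamma genes. Among the members named below, Gm26672 ran antisense to exons of Pcdhga12 (422 shared bases), Gm37165 to those of Pcdhga7 (536 bases), Gm37118 to those of Pcdhga1 (406 bases), Gm10545 to those of Pcdha12 (531 bases) and BC037039 to those of Pcdhgc3 (1559 bases). 3222401L13Rik ended 50 bases before the start of Pcdhga1 on the same strand and shared no exonic base with any gene.

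In wild-type tissues the clusters were most abundant in neural organs. Summed over all protocadherins of the 3 clusters, the wild-type level was 433 TPM in brain, 338 in eyes, 169 in MEFs, 48.5 in testes, 40.7 in heart, 29.8 in spleen, 18.5 in prostate and 4.19 in liver. Without single-library values, none of the steps in this order can be set against a spread. In bulk tissue, fewer cells of a type and less RNA per cell cannot be told apart.

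The clusters differed in where they were detected. The alpha sum was 56.3 TPM in wild-type brain, 22.1 in eyes and 15.4 in testes, and at most 1.1 TPM elsewhere. Pcdhac2 alone made up 47.8% of the alpha sum in brain, whereas Pcdha2, at 10.3 TPM, made up 67.2% of it in testes. Beta genes summed to 170 TPM in brain and 178 in eyes, led in both by Pcdhb9 (20.6 and 20 TPM). Gamma genes summed to 206 TPM in brain, 138 in eyes and 135 in MEFs. In MEFs the C-type gene Pcdhgc3, at 54.6 TPM, was 40.6% of the gamma sum, and in brain Pcdhgc5, at 40.1 TPM, was 19.5% of it.

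**Figure D1:**
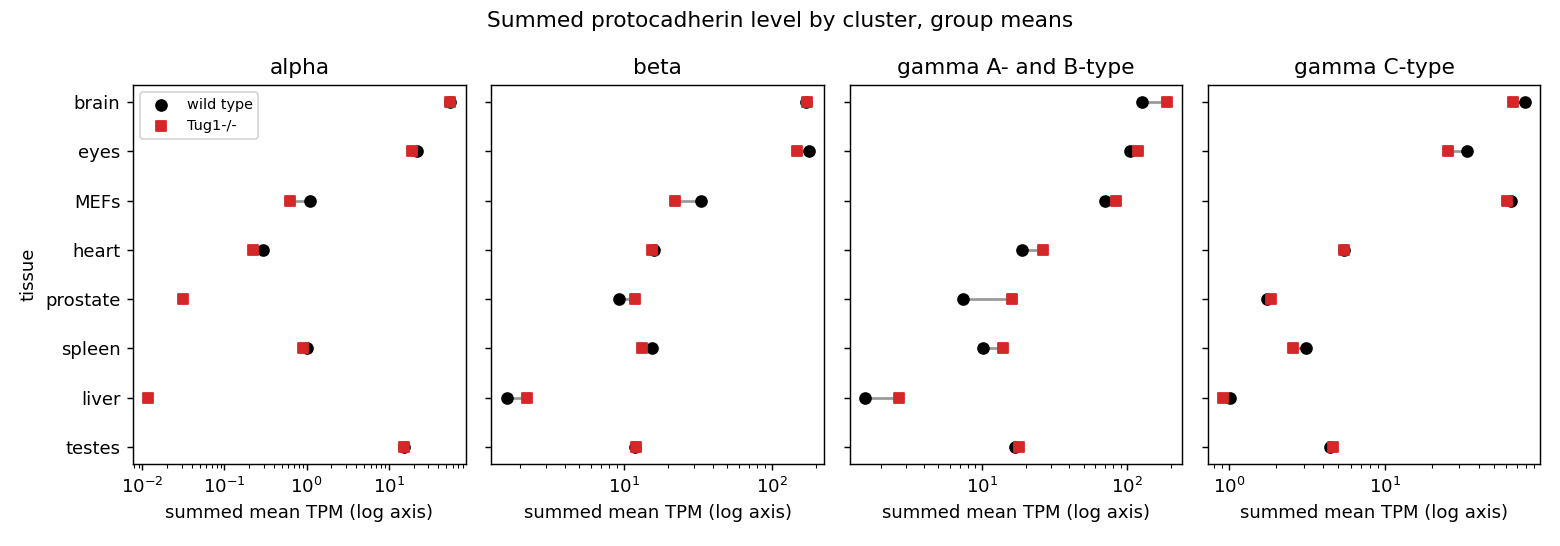
Summed mean TPM (log axes) of the alpha, beta, gamma A- and B-type and gamma C-type protocadherins in 8 tissues, with wild-type group means as black circles and Tug1-/- group means as red squares; no error can be drawn, since only means were available. The gamma A- and B-type sum is higher in the Tug1-/- mean in every tissue, from 1.07 times the wild type in testes to 2.17 times in prostate, whereas the gamma C-type sum is between 0.758 and 1.06 times.

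Between genotypes, the A- and B-type gamma genes together were higher in the Tug1-/- mean in all 8 tissues, their sum going from 127 to 188 TPM in brain (1.49 times), from 18.9 to 26.3 TPM in heart (1.39 times), from 10.2 to 13.9 TPM in spleen (1.36 times) and from 7.4 to 16.1 TPM in prostate (2.17 times). The ratio was smaller in MEFs (70.5 and 83.8 TPM, 1.19 times), eyes (104 and 119 TPM, 1.14 times) and testes (16.9 and 18.1 TPM, 1.07 times). In liver the sums were 1.56 and 2.69 TPM (1.72 times), with no A- or B-type gene reaching the 0.5 TPM limit. The C-type gamma genes were at 0.827 times the wild-type sum in brain, 0.824 times in spleen and 0.758 times in eyes, and between 0.905 and 1.06 times in the other tissues. The beta sum was at 0.66 times in MEFs, 0.829 times in eyes and 0.86 times in spleen, at 0.966 times in heart and 1.02 times in brain and testes, and at 1.27 times in prostate and 1.37 times in liver (1.62 and 2.22 TPM). The alpha sum was at 0.998 times in brain, 1.01 times in testes and 0.866 times in eyes. Where alpha RNA was scarce, its sum was at 0.916 times in spleen (0.999 and 0.915 TPM), 0.771 times in heart (0.291 and 0.224 TPM) and 0.564 times in MEFs (1.1 and 0.619 TPM). The sum over all clustered protocadherins was within 0.92 to 1.17 times the wild type in testes, spleen, eyes, brain, heart and MEFs, and at 1.62 times in prostate and 1.39 times in liver.

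Members past 1.5-fold were counted in each tissue beside the same count over all genes kept. In brain, 54 of 59 members were kept and 11 were past 1.5-fold higher, against 2.68% of all genes, and 0 were past it lower, against 4.61%. In eyes, 54 members were kept, with 4 past higher (3.43% of all genes) and 1 lower (5.31%). In MEFs, 35 of the 49 listed were kept, with 5 past higher (4.06% of all genes) and 8 lower (4.59%), the latter being 7 beta genes and Pcdhga6 (2.75 and 1.62 TPM), named after its values were seen. Brain thus held members only in the higher direction, while MEFs held them in both. In heart, 29 of 48 were kept, with 5 higher (2.33% of all genes) and 1 lower (2.84%). In prostate, whose Tug1-/- mean rests on 2 libraries, 20 of 45 were kept, with 14 higher (5.74%) and 1 lower (3.11%). In spleen, 23 of 46 were kept, with 5 higher (5.56%) and 1 lower (5.7%), and the median log2 ratio of the 23 was 0.20 where that of all genes was -0.11. Many of these members were low: in prostate 6 of the 14, and in spleen 3 of the 5, had a wild-type mean under 0.5 TPM and were kept through their Tug1-/- mean. With 1 TPM added, or with a 2-fold limit, 0 members were past the limit in heart. The counts in prostate, brain and MEFs also fell under both changes, as given at the end. Among genes at 0.5 to 10 TPM, which vary more than abundant ones, 3.17% to 9.32% of all genes were past 1.5-fold higher in the 9 comparisons and 4.12% to 10.6% lower. In liver only Pcdhgc3 of 45 members was kept and it was not past the limit in either direction, the shares over all genes being 3.74% higher and 2.9% lower. In testes 25 of 58 were kept and 0 were past it in either direction, against 2.99% higher and 3.78% lower over all genes. Summed over the 8 tissues, members were past 1.5-fold higher 44 times, of which 39 were in the gamma cluster and 5 in the beta cluster. They were past it lower 12 times, of which 11 were in the beta cluster and 1 in the gamma cluster.

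**Figure D2:**
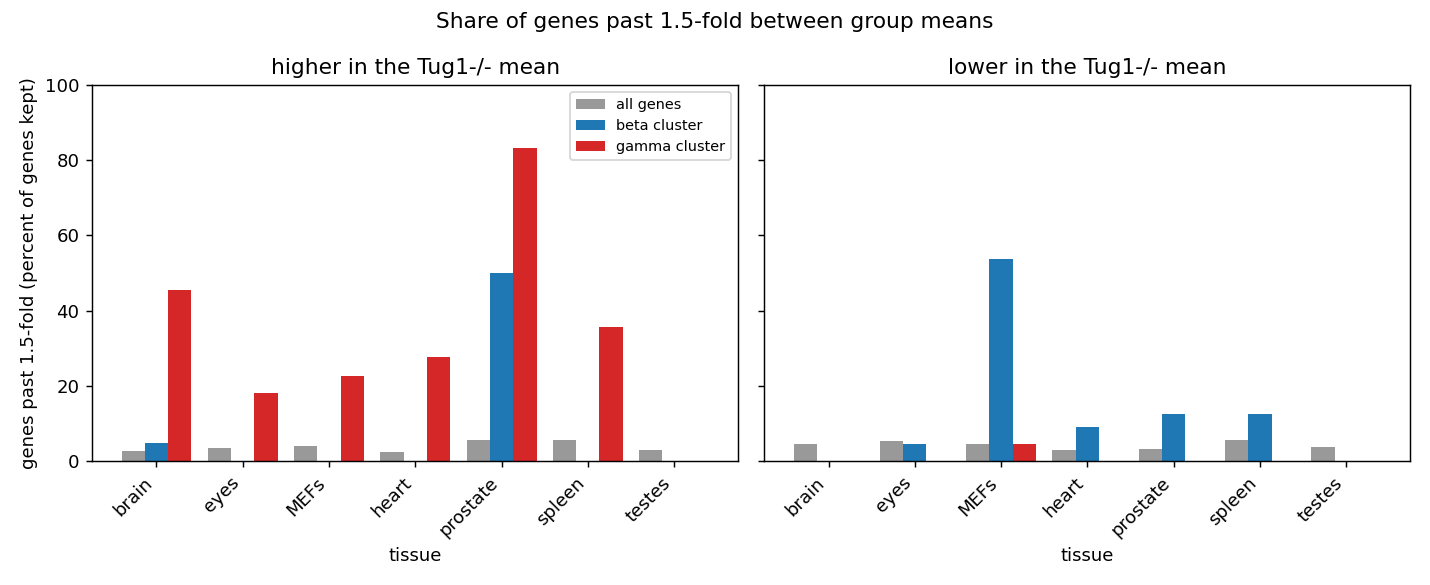
Percent of genes kept that were past 1.5-fold between the Tug1-/- and wild-type means, higher on the left and lower on the right, for all genes (grey), the beta cluster (blue) and the gamma cluster with 3222401L13Rik (red) in 7 tissues; liver is left out, since 1 member was kept there. The gamma bars stand at 45.5% in brain and 83.3% in prostate on the left, where 6 of the 14 members past the limit in prostate and 0 in brain were kept only through their Tug1-/- mean, and the beta bar at 53.8% in MEFs on the right.

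Across tissues, 7 members were past 1.5-fold higher in at least 3 tissues, and all 7 belonged to the gamma cluster: 3222401L13Rik, Pcdhga1, Pcdhga2, Pcdhga3, Pcdhga7, Pcdhgb8 and Pcdhga12. That is 16.3% of the 43 members kept in at least 3 tissues, where 1% of all genes kept in at least 3 tissues did so. Some of these calls were of members kept only through their Tug1-/- mean. Counting only tissues with a wild-type mean of at least 0.5 TPM, a rule chosen after seeing the data, 6 members (14% of 43) were past it in at least 3 tissues, against 0.753% of all genes, and Pcdhga1 was left with 1 tissue. A single member, Pcdhb9, was past 1.5-fold lower in at least 3 tissues, which is 2.33% of the 43 members, against 0.71% of all genes. In prostate, 1 of those 3 tissues, it was kept only through its wild-type mean, its Tug1-/- mean being 0.356 TPM. The 7 lie in 2 stretches and at 1 isolated gene. 3222401L13Rik and Pcdhga1 to Pcdhga3 stand next to each other at the 5′ end of the gamma cluster, Pcdhgb8 and Pcdhga12 are neighbours at the 3′ end of its variable exons, just before the C-types, and Pcdhga7 lies between.

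3222401L13Rik, an intergenic RNA with no role that could be given here, was higher in the Tug1-/- mean in all 8 tissues. It went from 2.02 to 4.65 TPM in brain, from 2.19 to 5.75 TPM in MEFs and from 1.08 to 3.41 TPM in spleen. The ratio was 2.63 in MEFs, with a counting interval of 2.35 to 2.94, and 3.16 in spleen, with an interval of 2.77 to 3.59. In prostate it went from 0.458 to 2.68 TPM, a ratio of 5.86 (interval 4.74 to 7.25) over means of 3 and 2 libraries. Its level was highest in eyes, where the genotypes differed least outside testes: 14.2 TPM in wild type and 17.7 in Tug1-/-, a ratio of 1.24 (1.19 to 1.3). In heart the ratio was 1.38 (1.27 to 1.49). In liver it was under the 0.5 TPM limit, at 0.109 and 0.676 TPM, a ratio of 6.22 (4.32 to 8.94). In testes it had means of 0.735 and 0.893 TPM.

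Pcdhga1, Pcdhga2 and Pcdhga3, A-type isoforms and the first protocadherins after that RNA, had the same direction in most tissues. Pcdhga2 was past 1.5-fold higher in 5 tissues, 2 of which (prostate and spleen) had a wild-type mean under 0.5 TPM. Counting only tissues with a wild-type mean of at least 0.5 TPM, it was past it in 3, and Pcdhga3, Pcdhgb8 and Pcdhga12 in 4. It went from 8.16 to 13 TPM in brain, from 3.12 to 4.9 TPM in MEFs and from 2.09 to 3.52 TPM in heart. The ratios in MEFs and heart were 1.57 (counting interval 1.4 to 1.77) and 1.69 (1.53 to 1.88). In prostate and spleen it was low, at 0.411 and 0.316 TPM in wild type, and at 1.89 and 0.941 TPM in Tug1-/-. Pcdhga1 went from 1.73 to 2.99 TPM in MEFs (ratio 1.72, interval 1.49 to 2), from 0.241 to 1.09 TPM in prostate and from 0.493 to 1.41 TPM in spleen. In eyes its ratio was 1.07, with an interval of 0.999 to 1.15 that reaches below 1. Pcdhga3 went from 11.6 to 18.5 TPM in brain and from 0.95 to 1.78 TPM in heart (ratio 1.88, interval 1.62 to 2.18), while in MEFs it was at 4.88 and 5.1 TPM, a ratio of 1.05 (0.942 to 1.16). In MEFs, then, Pcdhga3 was near equal between genotypes and Pcdhga1 and Pcdhga2 beside it were not.

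Pcdhga7, an A-type isoform in the middle of the gamma cluster, had the highest log2 ratio of the protocadherins in brain, at 1.23. Its brain means were 9.15 TPM for wild type and 21.7 TPM for Tug1-/-. In eyes it went from 5.84 to 9.52 TPM, a ratio of 1.63 with a counting interval of 1.52 to 1.75, and in prostate from 0.938 to 2.61 TPM, a ratio of 2.78 (2.33 to 3.34). In heart it was at 1.29 and 1.49 TPM, a ratio of 1.15 (1.01 to 1.32). The antisense gene Gm37165 went the other way in brain and eyes, but at 0.173 and 0.0675 TPM in brain and 0.183 and 0.126 TPM in eyes, under the limit of 0.5 TPM.

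Pcdhgb8 and Pcdhga12 were past 1.5-fold higher in the same 4 tissues: eyes, brain, heart and MEFs. Pcdhgb8, which the annotation of the files calls a polymorphic pseudogene, went from 0.943 to 3.35 TPM in MEFs, a ratio of 3.56 with a counting interval of 2.92 to 4.32. It also went from 1.93 to 3.94 TPM in brain, from 1.76 to 3.55 TPM in eyes and from 0.971 to 1.75 TPM in heart. Pcdhga12, an A-type isoform, went from 8.65 to 17.1 TPM in brain, from 3.47 to 6.02 TPM in eyes, from 3.45 to 6.23 TPM in MEFs and from 1.01 to 2.01 TPM in heart. Its ratio was 1.81 (interval 1.65 to 1.98) in MEFs and 1.99 (1.76 to 2.24) in heart. In testes, where Pcdhga12 was the most abundant gamma gene, the means were 4.51 and 4.28 TPM, and those of Pcdhgb8 were 1.92 and 2.16 TPM. Both genes were thus clearly present in testes with neither past 1.5-fold, while in prostate, spleen and liver they were under 0.5 TPM in every mean. Gm26672, antisense to exons of Pcdhga12, went from 0.136 to 0.966 TPM in MEFs, from 0.641 to 1.05 TPM in eyes, from 0.327 to 0.538 TPM in brain and from 0.155 to 0.349 TPM in heart. Since strand was not marked in MEFs, eyes and heart, the values of this gene and of Pcdhga12 cannot be told apart over their shared bases.

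**Figure D3:**
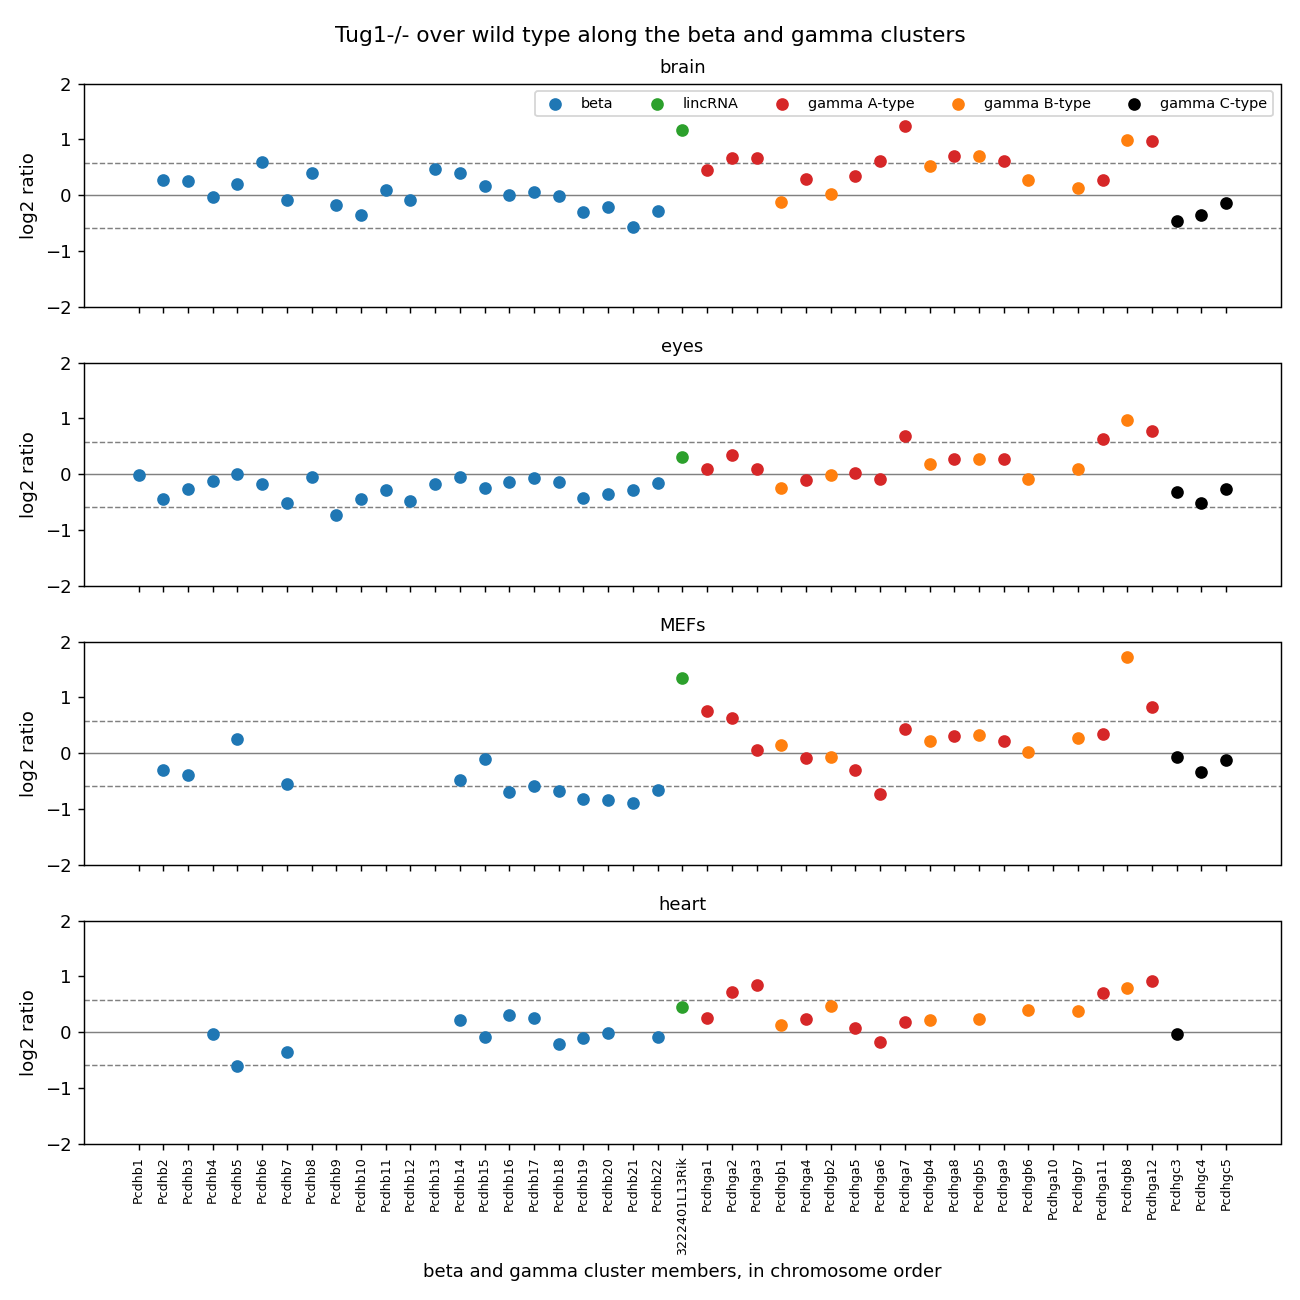
Log2 ratio of the Tug1-/- over the wild-type mean (0.1 TPM added) for each beta and gamma member kept, in chromosome order, in brain, eyes, MEFs and heart; dashed lines mark 1.5-fold in each direction and a gap is a member that was not kept. In MEFs beta members lie from 0.26 for Pcdhb5 (named after its values were seen) down to -0.89 for Pcdhb21, the gamma A- and B-types reach 1.73 for Pcdhgb8, and the C-types lie below 0 in brain, eyes and MEFs.

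In brain, eyes, MEFs, spleen and liver the C-type gamma sum was lower in the Tug1-/- mean, while it was 1.05 times the wild type in testes, 1.06 times in prostate and 0.994 times in heart. Pcdhgc3, which is broadly expressed and was the most abundant gamma gene in 6 of the wild-type tissues, had brain means of 24.8 TPM for wild type and 17.9 TPM for Tug1-/-. It was at 18 and 14.4 TPM in eyes (ratio 0.797, counting interval 0.761 to 0.835) and at 2.82 and 2 TPM in spleen (0.709, 0.631 to 0.799). In MEFs, its highest level, it was at 54.6 and 52 TPM, a ratio of 0.953 (0.926 to 0.982), and in prostate, heart and liver the interval of the ratio spanned 1. BC037039, antisense to exons of Pcdhgc3, was at 0.837 and 0.676 TPM in brain, 1.01 and 0.813 TPM in eyes and 0.811 and 0.705 TPM in MEFs. Pcdhgc4, the gamma isoform known to be needed for the survival of neurons, was at 14.5 and 11.4 TPM in brain and at 13.4 and 9.31 TPM in eyes, with a ratio in eyes of 0.694 (0.656 to 0.733). Pcdhgc5, an isoform of mature brain, was at 40.1 and 36.4 TPM in brain and 8.27 and 7.57 TPM in MEFs. None of the 3 was past 1.5-fold in any tissue in which it was kept. In spleen Pcdhgc4 was under the 0.5 TPM limit and went the other way, at 0.197 and 0.442 TPM, a ratio of 2.25 (1.59 to 3.19). The log2 ratios of the C-types were below 0 in brain, eyes and MEFs, and their medians were -0.35, -0.33 and -0.13, against 0.61, 0.27 and 0.30 for the A-types. Among all genes kept, the median log2 ratio was -0.03 in brain, -0.11 in eyes and 0.04 in MEFs.

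**Figure D4:**
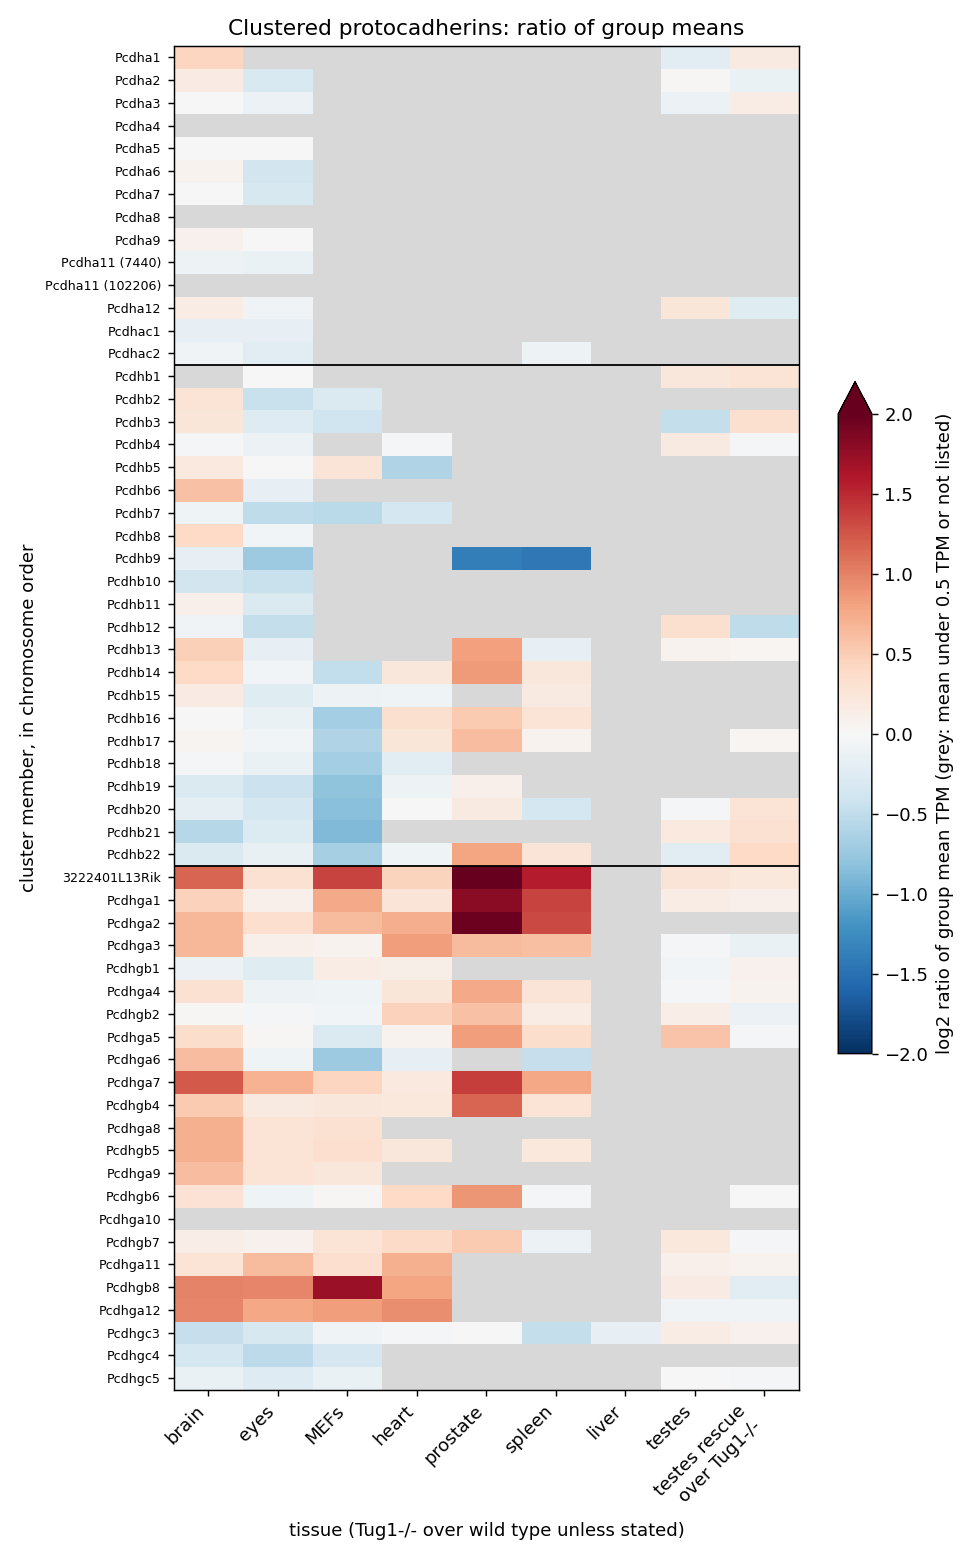
Log2 ratio of group means (colour, 0.1 TPM added) for the 59 members in chromosome order, one column per tissue for Tug1-/- over wild type and a last column for testes rescue over Tug1-/-; grey cells had a mean under 0.5 TPM or were not listed, black lines part the alpha, beta and gamma clusters, and the 2 IDs named Pcdha11 are marked by the end of their ID. Red cells gather in the gamma rows outside testes, with 3222401L13Rik in prostate at 2.32, and blue cells in the beta rows of MEFs.

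Beta genes, which encode adhesion proteins without the constant cytoplasmic part of the alpha and gamma proteins, differed between tissues in direction. In MEFs 12 of the 13 beta members kept had a log2 ratio below 0, and 7 were past 1.5-fold lower. Their median log2 ratio was -0.59, where that of all genes was 0.04. The 7 were Pcdhb16 to Pcdhb22, neighbours at the end of the cluster nearest the gamma genes, of which Pcdhb16, Pcdhb18 and Pcdhb19 are named after their values were seen. Pcdhb17 went from 6.95 to 4.57 TPM (ratio 0.658, counting interval 0.595 to 0.726), Pcdhb22 from 5.84 to 3.67 TPM (0.628, 0.572 to 0.688) and Pcdhb21 from 1.55 to 0.792 TPM (0.51, 0.405 to 0.642). The next members in chromosome order, 3222401L13Rik and Pcdhga1, were past 1.5-fold higher in MEFs.

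In eyes, 21 of 22 beta members had a log2 ratio below 0, but small in size. The median was -0.21, beside -0.11 over all genes, and only Pcdhb9 was past 1.5-fold. Pcdhb20 was at 16.9 and 13.2 TPM, a ratio of 0.78 (0.735 to 0.828), and Pcdhb17 at 16.1 and 15.4 TPM, a ratio of 0.958 (0.91 to 1.01). In brain the beta median was 0.01, with 11 members above 0 and 10 below, and the only one past 1.5-fold was Pcdhb6, named after its values were seen, at 5.21 and 7.91 TPM. In prostate 7 of 8 beta members kept were above 0, of which Pcdhb13 (named after its values were seen) was kept only through its Tug1-/- mean. Among the 7 were Pcdhb17 (0.879 and 1.4 TPM, ratio 1.6, 1.28 to 1.99) and Pcdhb22 (1.31 and 2.34 TPM, ratio 1.78, 1.54 to 2.06). Pcdhb22 and Pcdhb17 were therefore past 1.5-fold in opposite directions in prostate and MEFs, a difference between tissues that was not tested. In heart, Pcdhb5 (named after its values were seen) was past 1.5-fold lower, at 0.818 and 0.506 TPM, and 8 of 11 beta members were below 0. Of those 8, Pcdhb7 (0.578 and 0.43 TPM) and Pcdhb15 (0.526 and 0.491 TPM) were kept only through their wild-type mean. These names too were chosen after the values were seen.

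Pcdhb9 stood out from its neighbours. It was the most abundant beta gene of wild-type brain and eyes and was lower in the Tug1-/- mean in all 8 tissues, past 1.5-fold in 3 of the 4 in which it was kept. It went from 1.57 to 0.518 TPM in spleen, a ratio of 0.329 with a counting interval of 0.248 to 0.435, from 1.09 to 0.356 TPM in prostate (0.327, 0.214 to 0.5) and from 20 to 12 TPM in eyes (0.603, 0.565 to 0.643). In brain, where it was as abundant as in eyes, its means were 20.6 and 18.3 TPM.

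**Figure D5:**
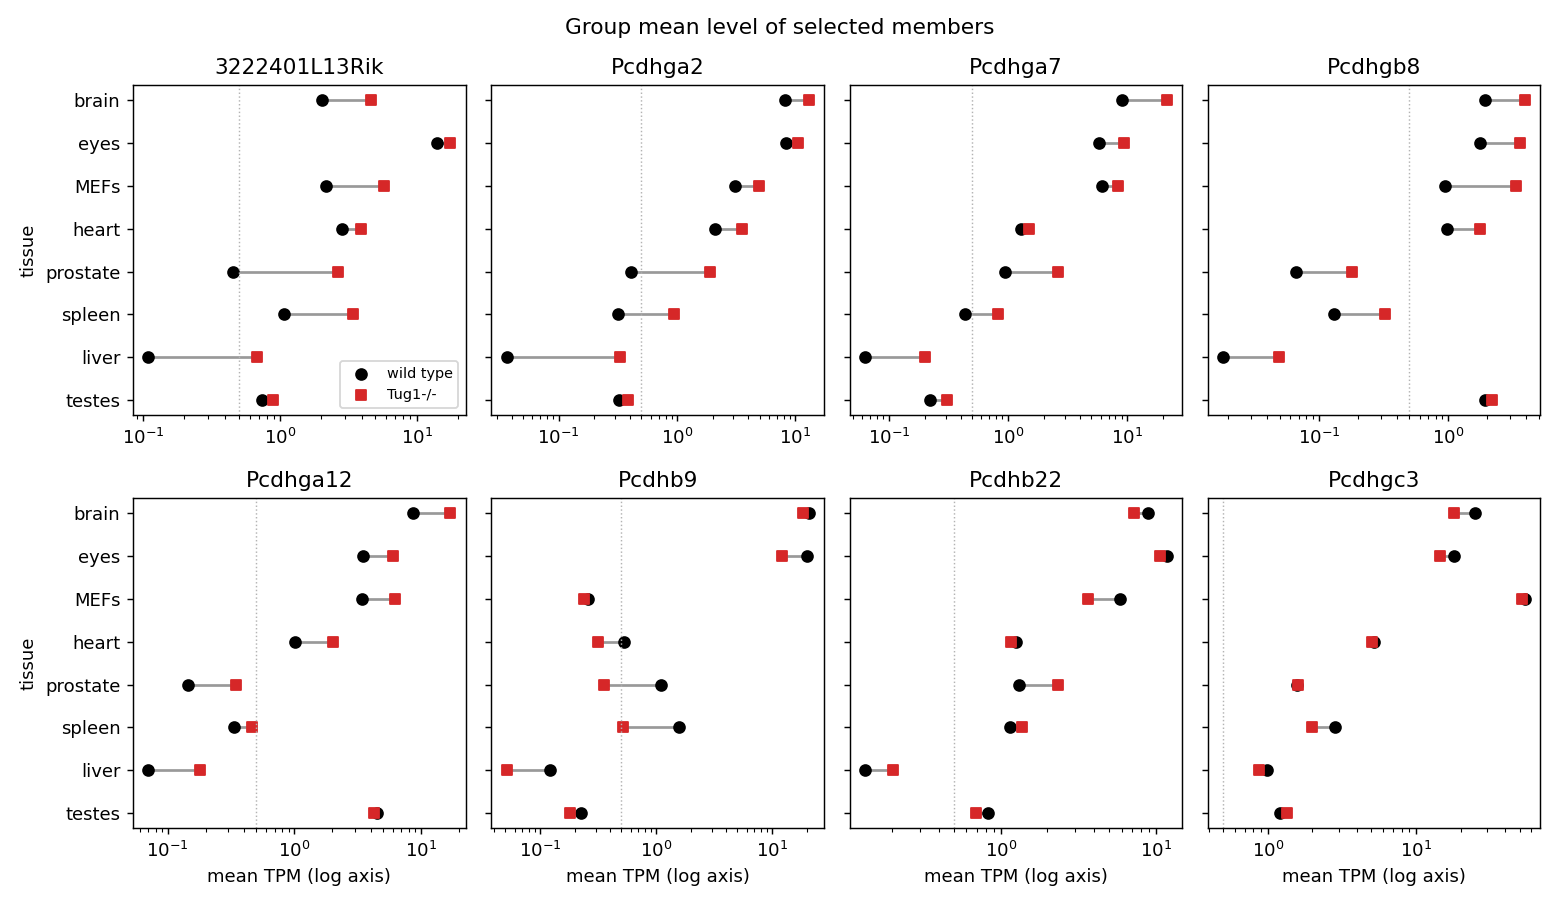
Group mean TPM (log axes) of 8 members in 8 tissues, wild type as black circles and Tug1-/- as red squares, with the 0.5 TPM limit as a dotted line; only means were available, so no error is drawn. 3222401L13Rik lies to the right in Tug1-/- in every tissue, Pcdhb9 to the left in every tissue, Pcdhb22 to the left in MEFs and to the right in prostate, and Pcdhgc3 at 54.6 and 52 TPM in MEFs.

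Few alpha genes were kept outside brain and eyes, with 4 in testes, 1 in spleen and 0 elsewhere. In brain 11 of 14 were kept and 0 were past 1.5-fold, where 2.68% of all genes were higher and 4.61% lower, with a median log2 ratio of 0.01, and in eyes 10 were kept and 0 were past it, where 3.43% of all genes were higher and 5.31% lower, with a median of -0.15 beside -0.11 over all genes. Pcdhac2, a C-type isoform and the main alpha gene of brain, was at 26.9 and 25.7 TPM in brain and at 8.52 and 7.32 TPM in eyes, where the ratio was 0.859 (0.805 to 0.916). Pcdhac1, the other alpha C-type, was at 3.51 and 3.14 TPM in brain. Pcdha12 was at 4.74 and 5.28 TPM in brain. In testes, Pcdha2 had means of 10.3 and 10.6 TPM.

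In testes, the median log2 ratio of the 25 members kept was 0.10, beside 0.03 over all genes, and the highest was that of Pcdhga5 at 0.57 (0.406 and 0.649 TPM) and the lowest that of Pcdhb3 at -0.47 (1.95 and 1.38 TPM). Pcdhga5 was kept there only through its Tug1-/- mean. Testes also differed from the other labelled tissues in strain background and in the allele named in their labels, so tissue and background cannot be told apart here. In the rescue, which shares its Tug1-/- libraries with the comparison above, 27 of 58 members were kept and 0 were past 1.5-fold, against 1.87% of all genes higher and 3.61% lower. Rescue over Tug1-/- gave a median log2 ratio of 0.03 over members and 0.01 over all genes (0.0345 and 0.005). Side by side, 3222401L13Rik was at 0.735, 0.893 and 1.05 TPM in wild type, Tug1-/- and rescue. Pcdhga12 was at 4.51, 4.28 and 4.07 TPM, Pcdha2 at 10.3, 10.6 and 9.62 TPM, Pcdhb12 at 0.537, 0.696 and 0.458 TPM, Pcdhb3 at 1.95, 1.38 and 1.74 TPM, and Pcdhb22 at 0.824, 0.697 and 0.954 TPM. The direction in which the 3 means differed varied from gene to gene, and in rescue over Tug1-/- the log2 ratio of Pcdhb12, at -0.51, was the largest in size among the members kept. Pcdhb12 was kept in that comparison only through its Tug1-/- mean.

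The members' ratios resembled each other between tissues. Over the 14 pairs of tissues with at least 20 members kept in both, Pearson's r of the log2 ratios across members was between 0.05 and 0.83, with a median of 0.71, and across all other genes kept in both it was between 0.01 and 0.28, with a median of 0.07. Pairs with prostate or spleen include members kept only through their Tug1-/- mean (7 of 20 in prostate and 3 of 23 in spleen), and in the other 8 pairs r across members was between 0.05 and 0.78. Those 8 are not free of such members, since testes held 1 kept only through its Tug1-/- mean. Kept only through their wild-type mean were 2 members in heart and 1 each in MEFs, prostate and spleen. The lowest were the pairs with testes, at 0.11 with eyes and 0.05 with brain. Between eyes and brain r was 0.77 over 53 members, and between eyes and MEFs 0.78 over 35. These are correlations across genes of the same 3 clusters, which are not independent of one another, and mice may be shared between tissues, so they describe likeness only.

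The genes around the clusters and those that act on them were counted by the same rule. Of 68 other genes starting within 1 Mb of the clusters or between their members, 36 to 53 were kept in a tissue. In MEFs 5 of 39 kept, Gm26672 among them, were past 1.5-fold higher, where 4.06% of all genes were, and in liver 3 of 36 were, where 3.74% of all genes were. Kept only through their Tug1-/- mean were Gm26672 (0.136 and 0.966 TPM) and Gm27804 (0 and 1.5 TPM) in MEFs and Gm19774 (0.43 and 0.736 TPM) in liver. The count past 1.5-fold higher was 2 of 45 in brain (2.68% of all genes), 1 of 53 in eyes (3.43%), 1 of 41 in heart (2.33%), 2 of 52 in testes (2.99%), 0 of 45 in prostate (5.74%) and 0 of 44 in spleen (5.56%). Past it lower were 3 of 53 in eyes (5.31% of all genes), 2 of 52 in testes (3.78%), 2 of 45 in prostate (3.11%) and 2 of 44 in spleen (5.7%). The lower count was 2 of 41 in heart (2.84%), 2 of 36 in liver (2.9%), 0 of 45 in brain (4.61%) and 0 of 39 in MEFs (4.59%). Some of these, such as Mir6981 in heart (1.19 and 0.41 TPM), were kept only through their wild-type mean. Over the flanking genes the median log2 ratio lay between -0.12 and 0.11. Of the 20 chromatin regulators, which include Ctcf, the cohesin subunits Rad21, Smc1a and Smc3, the DNA methyltransferases and Smchd1, the only one past 1.5-fold in any tissue was Morc2a. Morc2a, a chromatin compaction factor and a chromosomal neighbour of Tug1, went from 34.2 to 19.2 TPM in brain, from 19.9 to 2.25 TPM in prostate, from 33.5 to 11.2 TPM in spleen, from 41.3 to 26.2 TPM in eyes and from 6.36 to 0.541 TPM in liver. In MEFs it was at 51.2 and 37.3 TPM, in heart at 10.2 and 7.1 TPM, and in testes at 52.9 and 47.3 TPM. Its level was thus lower in the Tug1-/- mean in all 8 tissues, least in testes, and its part in the protocadherin values was not tested. Over the list of regulators the median log2 ratio lay between -0.10 and 0.10.

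Of the 12 non-clustered protocadherins, relatives that are single genes outside the clusters, 11 were kept in brain, 12 in eyes, 7 in heart, 4 in prostate and 8 in testes. None of those was past 1.5-fold, where 2.33% to 5.74% of all genes were past it higher and 2.84% to 5.31% lower. In spleen 8 were kept, and Pcdh18 (14.1 and 5.04 TPM), Pcdh1 and Pcdh10 were past it lower (5.7% of all genes). In liver 3 were kept, and Pcdh17, kept only through its Tug1-/- mean, was past it higher (3.74%). In MEFs 8 were kept, and Pcdh1 (3.64 and 6.4 TPM) was past it higher (4.06%) and Pcdh11x and Pcdh20 lower (4.59%). Pcdh1 and Pcdh12 lie within 1 Mb of the clusters and are counted among the flanking genes as well.

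Markers of cell types that could carry protocadherin RNA are given beside these values. The 8 neuronal markers summed to 4715 and 4570 TPM in wild-type and Tug1-/- brain, 1703 and 1494 in eyes, 20.3 and 21.6 in prostate, 10.6 and 7.89 in spleen, 10.9 and 9 in MEFs, 7.39 and 6.1 in heart, 6.45 and 6.07 in liver and 22.3 and 21.3 in testes, with only Rbfox3 in testes past 1.5-fold (lower). In prostate, testes, liver and MEFs a single marker made up most of the wild-type sum: Rbfox3 at 16.1 TPM, Map2 at 19.7, Syt1 at 5.81 and Eno2 at 7.04. Only 1 of the 8 markers was kept in liver, and 3 each in testes and MEFs. The fibroblast markers, 5 in number, had medians between -0.42 in spleen and 0.33 in prostate, and none was past 1.5-fold. The 4 endothelial markers had medians between -0.28 in spleen and 0.45 in MEFs, with only Cdh5 in MEFs past it (higher). Of the 5 astrocyte markers, Slc1a3 in prostate and Gfap in spleen were past it higher and Aqp4 in liver lower, with medians from -0.13 to 0.26. In prostate, the summed fibroblast level went from 231 to 291 TPM and the endothelial one from 26.1 to 32.6 TPM. The part of these cell types in the protocadherin values was not tested.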

How the data were processed

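Poly(A) RNA of all tissues but brain was sequenced by the study from libraries of a kit (TruSeq RNA) that does not mark strand, whereas brain reads came from an earlier dataset. Per the study's methods, reads were aligned with STAR to GRCm38 (mm10), uniquely mapped reads were counted per GENCODE vM16 gene with featureCounts, and genes under 3 reads in every replicate were left out. The authors deposited 2 tables, one of testes and one stacking 7 other tissues, which give per gene the group mean in TPM. The second table also holds a mean normalised count over all libraries of a tissue, deposited as a signal, that is counts divided by size factors. The columns of the authors' own comparisons (log2 fold changes with errors, test statistics, p-values, adjusted p-values and significance marks) were not used. Values of single libraries were not analysed here, so no test was made. F1 hybrid testes (6 libraries) were not analysed here.

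Log2 ratios of means were computed in Python 3.11.15 with numpy 2.4.6, pandas 2.3.3 and scipy 1.17.1, with 0.1 TPM added, for genes with a mean over both groups of at least 0.5 TPM, and were checked on simulated means. Genes past 1.5-fold were counted. The counting interval split the summed normalised counts of a gene between the genotypes in the ratio of their TPM and took an exact 95% binomial interval, which assumes that normalised counts behave as reads. TPM is comparable between genes per length. Depth is known for the 7 stacked tissues only as summed normalised counts. The members and the lists (chromatin regulators, non-clustered protocadherins, flanking genes, cell type and tissue markers) were chosen with earlier results of these data known. Genes were named by rule: 3222401L13Rik, the C-types, the 3 most abundant members of each cluster, members past 1.5-fold in the same direction in at least 3 tissues, and the 3 members with the largest log2 ratios per comparison. Exon overlaps came from GENCODE vM21 of the same build. No sequence is shown. Some items of the marker lists are not reported here.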

Additional observations from a re-analysis of the deposited data

How the results depend on the processing

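No paired analysis was possible because the files give group means and no values of single libraries, and for the same reason no library could be left out in turn. Adding 1 TPM in place of 0.1 left 5 members past 1.5-fold in prostate (15 before), 3 in spleen (6), 7 in brain (11), 0 in heart (6) and 3 in MEFs (13), by its construction, which shrinks ratios of low genes. Adding 0.01 TPM gave 1 member in testes and 1 in the rescue, both 0 before. A 2-fold limit left 6 in prostate, 2 in brain, 2 in MEFs and 0 each in eyes and heart. Keeping genes of at least 1 TPM left 6 in prostate and 2 in spleen. Without a filter the counts were 13 in spleen, 10 in heart, 10 in liver, 1 in testes and 2 in the rescue. Keeping genes at 0.5 to 10 TPM alone, an alternative chosen after seeing the data, left 6 in brain. Centring on the median of all genes kept every count within 1.5 times, and gave 5 members higher and 9 lower in MEFs. Of 752 ratios of named members recomputed under the alternatives, 697 stayed within the counting interval of the ratio (within 0.1 on the log2 scale in brain and testes), 55 did not, and 0 of those past 1.5-fold changed sign. The lack of single-library values limits every comparison, and low members in prostate, spleen and liver rest on few reads.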
